A study of Mus musculus with 24 samples.

Results

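The genes described here write, erase and read acetyl-lysine on histones and other proteins. They are 39 of the 51826 genes in the count table, chosen by name from a list of histone acetyltransferases, histone deacetylases and acetyl-lysine cofactors, and matched by symbol to mouse Ensembl identifiers through GENCODE M21. All 39 symbols matched 1 identifier each, and all 39 passed the filter on low counts in each of the 7 comparisons. By role they are 2 genes of the p300/CBP family, 2 GNAT and 5 MYST acetyltransferases, 3 p160 coactivators, the type B acetyltransferase Hat1, 4 class I, 4 class IIa and 2 class IIb deacetylases, the class IV deacetylase Hdac11, 7 sirtuins, 7 bromodomain proteins and the corepressor Ncor1. The question put to them was whether a mutation of Crebbp is accompanied by altered RNA of its paralogue or of the opposing enzymes.

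Acetyltransferases place acetyl groups on lysines of histone tails, which loosens the hold of histones on DNA and creates docking sites for bromodomain proteins, and deacetylases take the groups off again. Crebbp encodes CBP, a large coactivator with an acetyltransferase domain that phosphorylated CREB binds through the KIX domain, and Ep300 encodes its close paralogue p300. In hippocampal neurons CBP and several deacetylases are known for their part in the gene activity that long-term memory needs.

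RNA of the dorsal hippocampus was sequenced in 24 libraries from C57BL/6j mice of 2 to 4 months described as male, either WT or homozygous for CBP KIX/KIX, a germline set of point mutations in the KIX domain that is present in every tissue throughout life. For its mice in general, the paper states that both sexes were used. RNA-Seq 1 used total RNA depleted of ribosomal RNA and holds WT homecage mice (n = 3), WT mice trained for 3 days in the Morris water maze (MWM, n = 3) and CBP KIX/KIX mice trained in the same way (n = 3). RNA-Seq 2 used polyA-selected RNA and holds WT homecage mice (n = 3), WT mice given contextual fear conditioning on 1 day (CFC, n = 4), CBP KIX/KIX mice after CFC (n = 4) and CBP KIX/KIX homecage mice (n = 4). Trained mice were sampled 1 h after training, and RNA-Seq 1 has no CBP KIX/KIX homecage group. Training paradigm, library type and sequencing run change together between the experiments and cannot be told apart. The point mutations do not show in gene counts, so the level of Crebbp is no check of the genotype.

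Depth is given as megacounts (M) assigned to genes per library, in the order of the replicate numbers. In RNA-Seq 1 it was 43.8, 46.4 and 62.4 M in WT homecage mice, 60.7, 65.7 and 58.7 M in WT MWM mice, and 56.5, 38.2 and 64 M in CBP KIX/KIX MWM mice. In RNA-Seq 2 it was 37.5, 43.7 and 15.4 M in WT homecage mice, 30.1, 43.6, 20.6 and 18.2 M in WT CFC mice, 37.2, 41.6, 18.3 and 16.8 M in CBP KIX/KIX CFC mice, and 36.9, 46.1, 16.6 and 15.9 M in CBP KIX/KIX homecage mice. No member had fewer than 135 counts in any library, while 3 counts, the smallest amount taken as detectable, correspond to 0.0537 to 0.175 CPM. CPM are counts per megacount of the normalized library size, that is the depth times an upper-quartile factor, which brings the upper quartiles of the genes of all libraries together. Levels of different members are compared only as CPM per kilobase of exon. The marker said to lead a sum is the one with the highest plain CPM.

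Markers of hippocampal neurons fitted the labelled tissue in all 24 libraries: none of the 8 genes was at 0, and their summed level lay between 3816 and 6087 CPM, led by Slc17a7 in RNA-Seq 1 and Snap25 in RNA-Seq 2. Some libraries stand apart. Replicate 3 of the WT homecage mice of RNA-Seq 1 had a neuron marker sum of 4188 CPM beside 6087 and 6009 in its group, and a choroid plexus marker sum of 1784 CPM beside 140 and 156. Replicate 4 of the CBP KIX/KIX homecage mice had an astrocyte marker sum of 2434 CPM beside 1183, 1414 and 1699 in its group and 1168 to 1210 in WT homecage mice. Gfap led that sum in replicates 2, 3 and 4, at 554, 800 and 1440 CPM, so replicates 2 and 3 also lie above the WT homecage mice, with replicate 4 the farthest. Choroid plexus markers, led by Ttr wherever they were high, ran from 26.3 to 4097 CPM across RNA-Seq 2 and from 140 to 2903 CPM across RNA-Seq 1, with high and low libraries in most groups. Bulk RNA cannot separate fewer cells of a type from less RNA per cell, which holds for each value here.

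Crebbp, on chromosome 16, was detected in every library. Ordered by CPM per kilobase it was number 11 of the 39 members in RNA-Seq 1 and number 29 or 30 in RNA-Seq 2. In RNA-Seq 1 it stood at 206, 255 and 175 CPM in WT homecage mice, at 193, 229 and 170 CPM in WT MWM mice and at 191, 165 and 193 CPM in CBP KIX/KIX MWM mice. In RNA-Seq 2 it stood at 69.7, 61 and 68 CPM in WT homecage mice, at 69.6, 62, 65.8 and 60.4 CPM in WT CFC mice, at 67.2, 60, 66.2 and 58.9 CPM in CBP KIX/KIX homecage mice and at 68.3, 67.1, 70 and 61.1 CPM in CBP KIX/KIX CFC mice. Within each experiment the groups overlap, and no group is set apart by genotype or by training. The step between the experiments is far larger than the spread inside either.

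Ep300, on chromosome 15, encodes the paralogue that shares the acetyltransferase, bromodomain and KIX domains of CBP. Its levels in RNA-Seq 1 were 89.1, 101 and 81.3 CPM in WT homecage mice, 85, 102 and 81.7 CPM in WT MWM mice and 82.9, 71.6 and 82.3 CPM in CBP KIX/KIX MWM mice. In RNA-Seq 2 they were 67.5, 58.9 and 70.9 CPM in WT homecage mice, 69.3, 65.4, 70.1 and 65 CPM in WT CFC mice, 63.6, 57.2, 60.4 and 70.4 CPM in CBP KIX/KIX homecage mice and 70.4, 62.1, 72.2 and 69.5 CPM in CBP KIX/KIX CFC mice. The genotypes overlap in each setting, with the lowest value of RNA-Seq 1 in a CBP KIX/KIX library and the highest in a WT library.

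Measured per kilobase of exon, Crebbp made up most of the RNA of the pair in RNA-Seq 1 and about as much as Ep300 in RNA-Seq 2. Its share of the pair was 71% ± 1.62 (SD, n = 3) in WT homecage, 69.8% ± 1.01 in WT MWM and 70.9% ± 0.186 in CBP KIX/KIX MWM mice. In RNA-Seq 2 it was 51.5% ± 1.09 (SD, n = 3) in WT homecage, 50.1% ± 0.873 (n = 4) in WT CFC, 51.4% ± 3.07 (n = 4) in CBP KIX/KIX homecage and 50.6% ± 2.11 (n = 4) in CBP KIX/KIX CFC mice. In MWM mice each CBP KIX/KIX library (70.8, 70.8 and 71.2%) lay slightly above each WT library (70.5, 70.2 and 68.6%), which is towards Crebbp and away from Ep300. In CFC and in homecage mice the genotypes overlap, as do WT homecage and WT CFC mice. In homecage mice that overlap rests on CBP KIX/KIX replicate 4. Replicates 1, 2 and 3 (52.7, 52.5 and 53.6%) lay above each WT library (52.1, 52.2 and 50.3%). No test was run on the share. The lowest share, 46.9%, belongs to replicate 4 of the CBP KIX/KIX homecage mice.

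**Figure D1:**
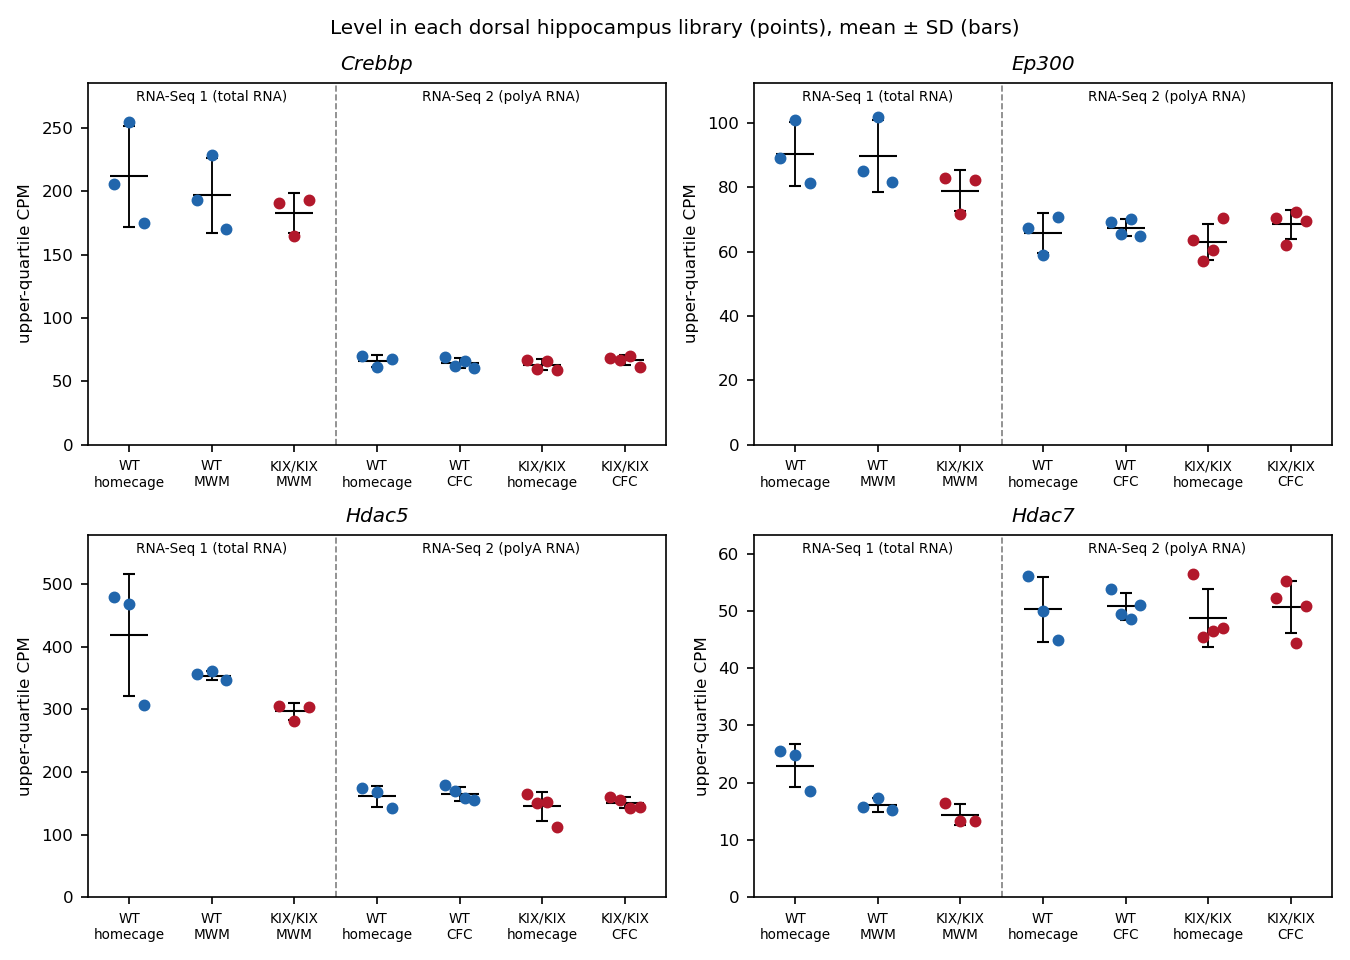
Level of Crebbp, Ep300, Hdac5 and Hdac7 in upper-quartile CPM (vertical axis) in each of the 24 libraries, by group (horizontal axis); blue points are WT, red points CBP KIX/KIX libraries, and black bars the mean ± SD. Hdac5 lies between 281 and 306 CPM in CBP KIX/KIX MWM libraries and between 347 and 361 CPM in WT MWM libraries.

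The other acetyltransferases differ widely in level. On the scale of CPM per kilobase of exon in WT homecage mice, Kat2a, the GNAT enzyme known as GCN5, stood at 22.4 in RNA-Seq 1 and 21.3 in RNA-Seq 2, and its paralogue Kat2b (PCAF) at 3.12 and 4.45. Among the MYST enzymes Kat7 (HBO1) was highest, at 18.9 and 15.6 on that scale, followed by Kat5 (TIP60) at 9.8 and 11, and Kat6b (MORF) was lowest at 3.65 and 3.88. Between them Kat6a (MOZ), at 8.38 and 5.97, was above Kat8 (MOF), which acetylates histone H4 at lysine 16, in RNA-Seq 1 and below it in RNA-Seq 2, Kat8 being at 5.68 and 7.49. Of the p160 coactivators, which bring CBP and p300 to nuclear receptors, Ncoa1 stood at 20.6 and 18.8, Ncoa3 at 7.62 and 5.83, and Ncoa2 at 5.62 and 5.34. Hat1, which acetylates newly made histones, stood at 2 and 4.87 CPM per kilobase, far below Crebbp in RNA-Seq 1 (15.7) and level with it in RNA-Seq 2 (4.89).

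Among the deacetylases the most abundant on the per-kilobase scale was Hdac11, the sole class IV enzyme, at 65.8 ± 13.2 (SD, n = 3) in WT homecage mice of RNA-Seq 1 and 31.1 ± 1.84 (n = 3) in those of RNA-Seq 2, the highest mean of all 39 members in each of the 7 groups. The class IIa enzymes, which shuttle between cytoplasm and nucleus with neuronal activity, span the range of the set, with WT homecage means in RNA-Seq 1 and 2 of 47.7 and 18.4 for Hdac5, 10.6 and 3.12 for Hdac4, 3.4 and 7.45 for Hdac7 and 2.52 and 2.63 for Hdac9, in CPM per kilobase. Of class I, Hdac1, Hdac2 and Hdac3 are catalytic subunits of nuclear corepressor complexes and Hdac8 acts outside them, and their levels followed the order Hdac3 (17.4 and 23.3), Hdac2 (9.64 and 17.2), Hdac1 (4.45 and 10.6) and Hdac8 (1.91 and 2.46). Of class IIb, the tubulin deacetylase Hdac6 stood at 17.9 and 10.6, and Hdac10, a polyamine deacetylase, at 8.05 and 6.06 CPM per kilobase.

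The sirtuins, which use NAD, were led by Sirt2, a cytoplasmic enzyme rich in myelin, at 18.9 CPM per kilobase in WT homecage mice of RNA-Seq 1 and 24.5 in those of RNA-Seq 2. The nuclear enzymes Sirt6 (9.02 and 6.53) and Sirt7 (6.87 and 8.06) and the mitochondrial Sirt3 (7.38 and 6.98) and Sirt4 (6.6 and 9.3) stood close together on that scale. The mitochondrial Sirt5 (2.19 and 1.63) and the nuclear Sirt1 (1.52 and 2.95) were the lowest, Sirt1 being the lowest member of all in the RNA-Seq 1 groups and Sirt5 in the RNA-Seq 2 groups.

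Bromodomain proteins dock on acetyl-lysine. Brd2, of the BET family, was highest among them at 31.1 and 24 CPM per kilobase in WT homecage mice of RNA-Seq 1 and 2, and its relative Brd3 stood at 11 and 7.67. The SWI/SNF subunits Brd9 (12.4 and 21.6) and Brd7 (5.31 and 8.85) were higher on that scale in RNA-Seq 2, while the scaffolds of MYST complexes Brd1 (11.4 and 6.48) and Brpf1 (8.07 and 6.15) were higher in RNA-Seq 1 and Brpf3 (4.11 and 4.61) was similar in both. Ncor1, the corepressor that activates Hdac3, stood at 19.5 and 16.9 CPM per kilobase.

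Members differed in level between the experiments about as often as other genes. In WT homecage mice, 31 of 39 (79.5%) had RNA-Seq 1 libraries that did not overlap the RNA-Seq 2 libraries, 16 of them higher in RNA-Seq 1 and 15 higher in RNA-Seq 2. The same held for 80.3% of the 10095 genes detected in all these libraries with a mean no lower than that of the lowest member. The ratio of mean CPM, RNA-Seq 1 over RNA-Seq 2, was 3.4 for Hdac4, 3.2 for Crebbp, 2.59 for Hdac5 and 2.11 for Hdac11, against 1.37 for Ep300. At the other end it was 0.411 for Hat1, 0.421 for Hdac1, 0.457 for Hdac7 and 0.515 for Sirt1. No test was run on this step, since library type and sequencing run cannot be told apart in it. Levels are therefore compared inside an experiment.

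**Figure D2:**
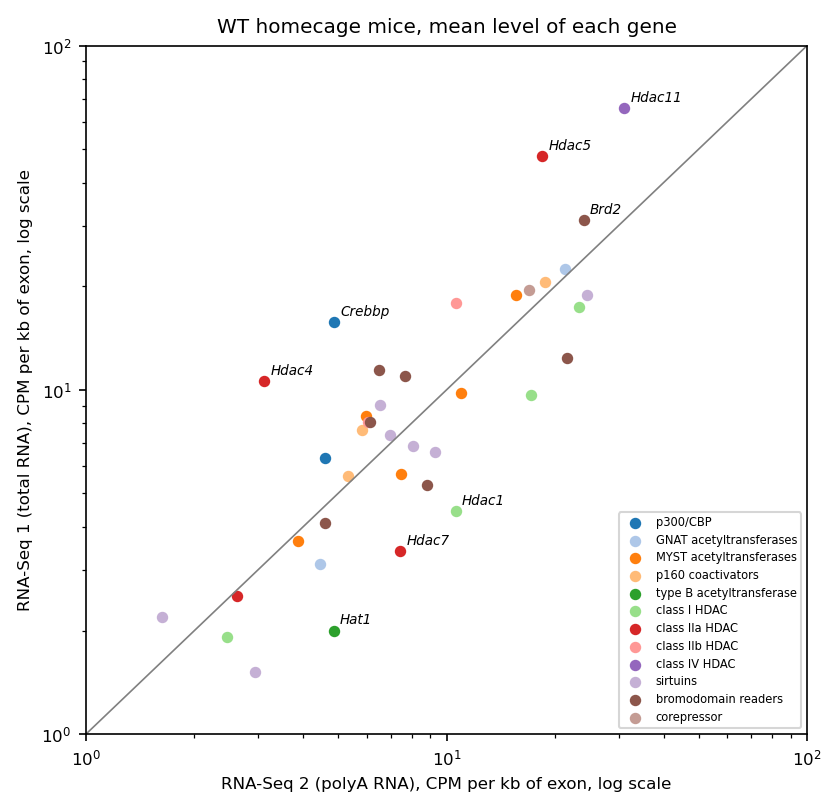
Mean CPM per kilobase of exon of the 39 genes in WT homecage mice, RNA-Seq 2 (horizontal) against RNA-Seq 1 (vertical), both axes logarithmic; colours mark roles and the line marks equal levels. Hdac4, Crebbp, Hdac5 and Hdac11 lie farthest above the line, Hat1, Hdac1 and Hdac7 farthest below it.

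CBP KIX/KIX mice were first compared with WT mice 1 h after learning, with MWM and CFC mice pooled. The member that fell was Hdac5 (ENSMUSG00000008855.17, chromosome 11), a class IIa deacetylase held in the cytoplasm when neurons are active. In RNA-Seq 1 it stood at 356, 361 and 347 CPM in WT MWM mice and at 306, 281 and 304 CPM in CBP KIX/KIX MWM mice. In RNA-Seq 2 it stood at 180, 169, 158 and 155 CPM in WT CFC mice and at 160, 156, 143 and 144 CPM in CBP KIX/KIX CFC mice. The MWM genotypes do not overlap, each CBP KIX/KIX library lying below each WT library, whereas in CFC mice the highest CBP KIX/KIX values overlap the lowest WT values. Across both, Hdac5 fell by 0.18 on the log2 scale, where 1 is a doubling (SE 0.0237, 95% interval -0.23 to -0.13, a change of -11.8%), with 7 of 7 CBP KIX/KIX libraries below the WT mean of their experiment and an adjusted p of 0.00153 by edgeR's quasi-likelihood test with Benjamini-Hochberg adjustment.

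The adjusted p bounds the expected share of false calls over all genes tested only where the p of the fit hold. This fit includes 4 factors of unwanted variation taken from residuals of the same counts. With them 610 genes were called, and without them 4. Whether the bound holds with factors was not tested. At an adjusted p under 0.05, 1 of 39 members was called, while 2.84% of all genes tested were called, so the count is near what the background gives. At an unadjusted p under 0.05 stood 8 members, 6 lower and 2 higher, which is 20.5% of the set beside 18.2% of all genes tested, with 4 members without factors (10.3% beside 8.81%), 10 without filter (25.6% beside 12.7%), 17 with replicate block and 4 factors (43.6% beside 26%) and 6 to 11 in fits without 1 library. In those fits without 1 library 13.1 to 21.2% of all genes stood at that p. DESeq2 called 1 member, Hdac5 (2.56% of the set), beside 4.36% of all genes. The call of Hdac5 ended without the 4 factors of unwanted variation, sample-wise terms estimated from the residuals of a first fit (log2 fold change -0.18, adjusted p 0.192), with replicate number as a block and no factors (-0.18, adjusted p 0.189), in RNA-Seq 1 alone (-0.24, adjusted p 0.435) and in RNA-Seq 2 alone (-0.13, adjusted p 1), in a range of adjusted p over the alternatives from 1.40e-10 to 1, while it stood in each of the 14 fits that left out 1 library, at an adjusted p of 0.00142 to 0.00626. Replicate block and 4 factors together gave 6 calls, 15.4% of the set beside 13% of all genes, with Hdac5, Hdac4, Ncoa3 and Hdac3 lower and Hdac2 and Ncor1 higher.

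The members that came next did not pass the test. Ncoa3, the p160 coactivator SRC-3, was at 73.8, 61.9 and 56.5 CPM in WT MWM and 54.3, 51.7 and 54.6 CPM in CBP KIX/KIX MWM mice, and at 45.7, 47.5, 46.3 and 45.8 CPM in WT CFC and 45.9, 47.9, 46.2 and 43.5 CPM in CBP KIX/KIX CFC mice. The MWM genotypes are apart and the CFC genotypes are alike. Its log2 fold change was -0.12 (95% interval -0.19 to -0.04), lower in 6 of 7 libraries, with an adjusted p of 0.0887 by edgeR. Hdac2, a class I deacetylase known for limiting memory formation, was at 44.3, 42.6 and 45.5 CPM in WT MWM and 47.8, 53.6 and 49.9 CPM in CBP KIX/KIX MWM mice, and at 76.3, 76.6, 83.4 and 84.2 CPM in WT CFC and 75.8, 83.2, 83.2 and 84.2 CPM in CBP KIX/KIX CFC mice. Again only the MWM genotypes are apart, with CBP KIX/KIX libraries the higher. Its log2 fold change was 0.10 (0.04 to 0.17), higher in 6 of 7 libraries, with an adjusted p of 0.0926 by edgeR.

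Ncor1 followed with 0.08 on the log2 scale (95% interval 0.02 to 0.14, adjusted p 0.113 by edgeR, higher in 6 of 7 libraries), and Hdac4 with -0.11 (-0.19 to -0.03, adjusted p 0.114, lower in 5 of 7). Single libraries moved some of these across the threshold. Ncoa3 was called without WT MWM replicate 2 (adjusted p 0.0373), WT MWM replicate 3 (0.0427) or CBP KIX/KIX CFC replicate 2 (0.0492), Hdac3 without CBP KIX/KIX MWM replicate 3 (0.0348), Hdac4 without WT CFC replicate 4 (0.031) and Hdac2 without CBP KIX/KIX CFC replicate 1 (0.0373). Fits without 1 library thus called 1 or 2 members (2.56 or 5.13% of the set), beside 1.05 to 4.74% of all genes.

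Neither gene of the p300/CBP family was called after learning. Crebbp had a log2 fold change of -0.02 (SE 0.0389, 95% interval -0.10 to 0.07), lower in 4 of 7 CBP KIX/KIX libraries, with an adjusted p of 0.894 by edgeR. Ep300 had -0.07 (SE 0.0374, -0.15 to 0.01), also lower in 4 of 7, with an adjusted p of 0.381. With GC-content normalization Crebbp turned to 0.01 and Ep300 stood at -0.03, neither called. Inside the experiments Ep300 stood at -0.17 (-0.38 to 0.03, adjusted p 0.521) in RNA-Seq 1 and, with the opposite sign, at 0.02 (-0.09 to 0.13, adjusted p 1) in RNA-Seq 2, and Crebbp at -0.10 (-0.33 to 0.13) and 0.05 (-0.07 to 0.17), each fitted without factors.

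By role, the 4 class IIa deacetylases were all below 0 after learning (median log2 fold change -0.09, of which Hdac5 was called), with Hdac9 at -0.07 and Hdac7 at -0.06, a direction kept with TMM, DESeq2 and GC-content normalization but in neither experiment alone, as Hdac9 was at 0.03 in RNA-Seq 1 and Hdac4 and Hdac7 at 0.00 in RNA-Seq 2. The class I enzymes split, Hdac1 (0.06) and Hdac2 above 0 and Hdac3 (-0.08) and Hdac8 (-0.06) below. Hdac11 was at -0.06, Hdac10 at -0.01 and Hdac6 at -0.02, the class IIb pair turning to a median of 0.04 with GC-content normalization and Hdac11 to -0.00. The 7 sirtuins ran from -0.07 (Sirt3 and Sirt7) to 0.11 (Sirt1), 4 below 0 or 3 with GC-content normalization, and the 7 bromodomain proteins from -0.07 (Brpf3) to 0.04 (Brd7), 6 below 0 or 5 with that normalization. The GNAT and MYST enzymes, 7 genes, lay between 0.00 and 0.06, with 1 MYST enzyme below 0 under TMM and DESeq2, Ncoa1 at 0.04, Ncoa2 at -0.05 and Hat1 at -0.04.

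Over all 39 members the median log2 fold change was -0.03, with 24 below and 15 above 0, beside a median of -0.01 over all genes tested, 52.3% of which were below 0. With GC-content normalization the split was 19 below and 20 above. In RNA-Seq 1 alone 25 members were below 0 (median -0.08), and in RNA-Seq 2 alone 11 were (median 0.02). All 39 intervals of the pooled fit lay within a 1.2-fold change in either direction, as did those of 50.7% of all genes tested. The lowest bound was -0.23 for Hdac5 and the highest 0.23 for Sirt1. The share of all genes includes genes with lower counts than any member, and no share was taken over genes of like level. This limit holds for each share of intervals given below.

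Markers of other cells also differed between the genotypes after learning. Of 5 astrocyte markers Gfap (log2 fold change -0.29, adjusted p 0.00191, lower in 6 of 7 libraries) and Aldh1l1 (-0.26, adjusted p 0.00432, 7 of 7) fell and Gja1 (0.16, adjusted p 0.00807, 7 of 7) rose by edgeR's test, while their sum, led by Slc1a3, was 994 ± 35.1 CPM (SD, n = 3) in WT MWM, 948 ± 24.2 (n = 3) in CBP KIX/KIX MWM, 1181 ± 35.7 (n = 4) in WT CFC and 1144 ± 49.1 (n = 4) in CBP KIX/KIX CFC mice. Of 8 neuron markers, Fibcd1 of CA1 neurons fell (-0.30, adjusted p 0.0223, 6 of 7) and Prox1 of granule cells rose (0.21, adjusted p 0.0419, 7 of 7). All 5 choroid plexus markers (median -0.50) and all 4 blood markers (median -0.33) were below 0 in the pooled fit without passing the test, but the experiments differ. The choroid plexus sum, led by Ttr, had a mean of 858 CPM in WT and 1464 in CBP KIX/KIX MWM mice and of 1899 in WT and 1502 in CBP KIX/KIX CFC mice, and the blood sum of 196 and 133 CPM in MWM and of 33.9 and 33.8 CPM in CFC mice. The calls of these astrocyte and neuron markers were lost without factors, with a replicate block and no factors, and in each experiment alone, and, but for Aldh1l1, with GC-content normalization. That of Prox1 was also lost without filter, with 2 factors and in 5 of 14 fits without 1 library (without WT MWM replicate 1 or 3, CBP KIX/KIX MWM replicate 1, WT CFC replicate 2 or CBP KIX/KIX CFC replicate 2), and that of Fibcd1 in 1 of them (without CBP KIX/KIX MWM replicate 1). The part of cell content in the value of Hdac5 was not tested.

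**Figure D3:**
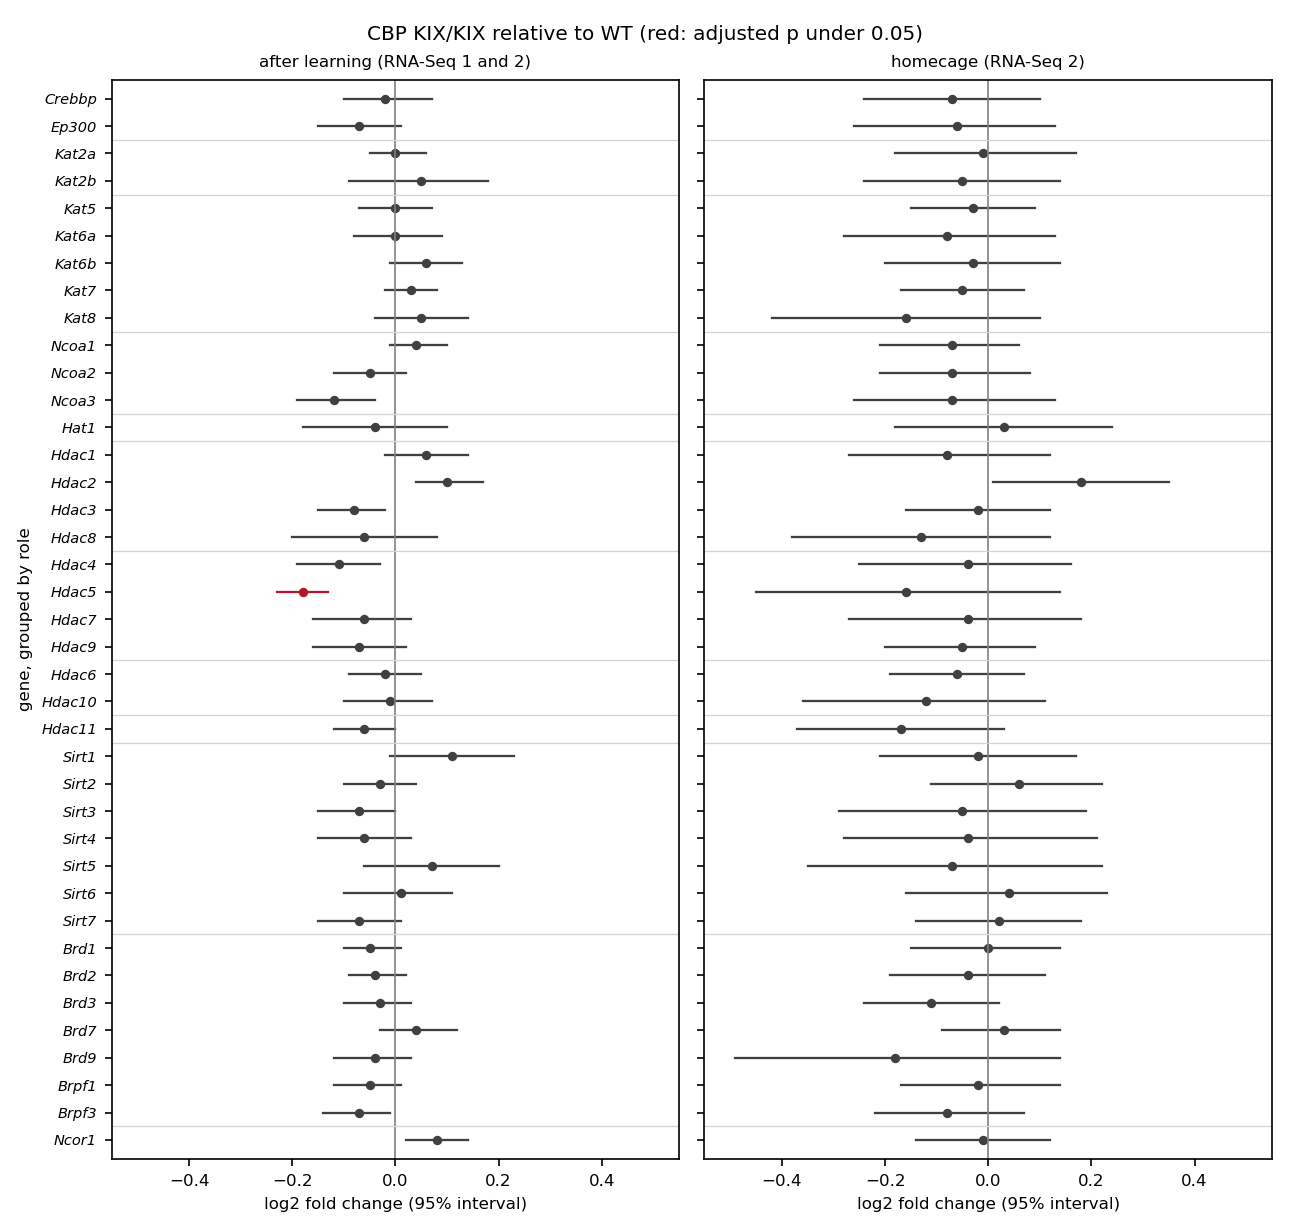
Log2 fold change (horizontal axis) with its 95% interval for each of the 39 genes (vertical axis, by role), CBP KIX/KIX over WT mice, after learning at left and in homecage mice at right; red marks an adjusted p under 0.05. Hdac5 after learning, at -0.18, is the sole red interval, and the intervals of Crebbp and Ep300 cross 0 in both panels.

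The homecage comparison asks whether the genotypes differ before any training, and exists in RNA-Seq 2 alone. Most members lay slightly lower in CBP KIX/KIX mice, none past the test. Hdac2 was the farthest above 0, at 76.8, 72.1 and 81.5 CPM in WT and 80.7, 81.9, 87.4 and 97.8 CPM in CBP KIX/KIX homecage mice. The genotypes overlap at their edge, and the highest value is that of replicate 4, the library with the highest astrocyte markers. Hdac2 had a log2 fold change of 0.18 (95% interval 0.01 to 0.35), higher in 4 of 4 libraries, with an adjusted p of 0.798 by edgeR, and 0.13 without that library. Sirt2 came next above 0 (0.06, -0.11 to 0.22).

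Below 0, Brd3 was at 55.9, 55.8 and 57.1 CPM in WT and at 54.3, 53.5, 50 and 49.9 CPM in CBP KIX/KIX mice (log2 fold change -0.11, 95% interval -0.24 to 0.02, lower in 4 of 4, adjusted p 0.798 by edgeR). Hdac11 was at 127, 119 and 113 CPM in WT and at 113, 116, 104 and 91.4 CPM in CBP KIX/KIX mice (-0.17, -0.37 to 0.03, lower in 4 of 4, adjusted p 0.798). For both genes the lowest value is again that of replicate 4. Without it Hdac11 stood at -0.10 and Brd3 at -0.09.

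Hdac5, lower in the mutants after learning, was at 174, 168 and 142 CPM in WT and at 165, 150, 152 and 112 CPM in CBP KIX/KIX homecage mice. The genotypes overlap, and replicate 4 is the lowest library. The log2 fold change was -0.16 (SE 0.131, 95% interval -0.45 to 0.14), lower in 3 of 4, with an adjusted p of 0.875 by edgeR, and -0.05 (-0.24 to 0.15) without replicate 4. The interval is too wide to tell a change as large as that after learning from none.

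Crebbp had a log2 fold change of -0.07 in homecage mice (SE 0.0741, 95% interval -0.24 to 0.10, lower in 2 of 4, adjusted p 0.91 by edgeR) and Ep300 -0.06 (SE 0.0855, -0.26 to 0.13, lower in 3 of 4, adjusted p 0.934). The class IIa deacetylases lay between -0.16 and -0.04, the class IIb pair at -0.12 (Hdac10) and -0.06 (Hdac6), and Hdac1, Hdac3 and Hdac8 between -0.13 and -0.02. The MYST enzymes lay between -0.16 (Kat8) and -0.03 (Kat5 and Kat6b), the GNAT enzymes at -0.05 and -0.01, each p160 coactivator at -0.07, the sirtuins between -0.07 and 0.06, the bromodomain proteins between -0.18 (Brd9) and 0.03 (Brd7), Hat1 at 0.03 and Ncor1 at -0.01. With GC-content normalization the sirtuins had 3 below 0 (4 without it), the bromodomain proteins 4 (6), the MYST enzymes 4 (5) and the GNAT enzymes 1 (2), and Ncor1 stood at 0.01.

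edgeR's quasi-likelihood test called 0 of 39 members in homecage mice, where 0.0107% of all genes tested were called. At an unadjusted p under 0.05 stood 1 member, Hdac2, or 2.56% beside 6.12% of all genes, and DESeq2 called 0 members, beside 0.305% of all genes. Without CBP KIX/KIX homecage replicate 1 the count at that unadjusted p was 3 members, beside 12.6% of all genes. The median log2 fold change was -0.05 with 33 members below 0, beside 0.00 over all genes tested, -0.02 with 26 below 0 without CBP KIX/KIX replicate 4, and -0.03 with 26 below 0 with a replicate block. Markers differed too without passing the test, with Gfap at 1.32 (median of 5 astrocyte markers -0.01) and all 5 choroid plexus markers above 0 (median 0.63), and their part in the values of the members was not tested. Of the intervals 25 of 39 lay within a 1.2-fold change, beside 29.6% of all genes tested.

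Whether the genotype difference after CFC departs from that in homecage mice was tested as an interaction within RNA-Seq 2. The interaction was 0.12 for Crebbp (95% interval -0.07 to 0.32, adjusted p 0.953), 0.09 for Ep300 (-0.12 to 0.30, adjusted p 0.964) and 0.03 for Hdac5 (-0.28 to 0.35, adjusted p 0.997), on the log2 scale. edgeR called 0 of 39 members, beside 0% of all genes tested, and DESeq2 called 0, beside 0.0053% of all genes. At an unadjusted p under 0.05 stood 0 members, beside 4.79% of all genes. Without CBP KIX/KIX homecage replicate 1 stood 4 members at that p, beside 11% of all genes. This interaction uses again the CFC and homecage libraries of the comparisons above.

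The same question for the experiments is whether the genotype difference after MWM departs from that after CFC. For Hdac5 this interaction, RNA-Seq 2 minus RNA-Seq 1, was 0.12 (95% interval -0.07 to 0.30, adjusted p 0.787), for Crebbp 0.15 (-0.11 to 0.42, adjusted p 0.806) and for Ep300 0.20 (-0.03 to 0.43, adjusted p 0.76). At an unadjusted p under 0.05 stood 5 members, which is 12.8% of the set beside 6.46% of all genes tested. That count was 3 with TMM or DESeq2 (7.69% beside 6.51 and 5.35% of all genes) and 1 with GC-content normalization (2.56% beside 5.63%). It was 6 without filter (15.4% beside 4.55%) and 6 with a replicate block (15.4% beside 7.48%). In fits without 1 library the lowest count was 2 (5.13%). It came without WT MWM replicate 1 (beside 4.54%) or CBP KIX/KIX MWM replicate 2 (beside 4.24%). The highest was 9, without WT MWM replicate 3 (23.1% beside 8.65%). With each experiment fitted alone, Hdac4 was at -0.24 in RNA-Seq 1 and 0.00 in RNA-Seq 2 (interaction 0.25), Ncoa3 at -0.25 and -0.01 (0.24), Hdac6 at -0.13 and 0.07 (0.20), Hdac2 at 0.20 and 0.03 (-0.17) and Hdac9 at 0.03 and -0.16 (-0.18). edgeR called 0 of 39, beside 0% of all genes tested, and DESeq2 called 0, also beside 0% of all genes.

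Learning itself was compared with homecage in WT mice, pooled over the experiments. The member that fell was Hdac7 (ENSMUSG00000022475.18, chromosome 15), a class IIa deacetylase best known from blood vessels and thymus. In RNA-Seq 1 it stood at 25.6, 24.8 and 18.6 CPM in homecage and at 15.7, 17.4 and 15.2 CPM in MWM mice. In RNA-Seq 2 it stood at 56.1, 50 and 44.9 CPM in homecage and at 53.9, 49.4, 48.6 and 51.1 CPM in CFC mice. All MWM libraries lie below all homecage libraries of their experiment, while the CFC libraries fall inside the homecage range. Pooled, Hdac7 fell by 0.24 on the log2 scale (SE 0.0461, 95% interval -0.34 to -0.14, a change of -15.2%), lower in 5 of 7 trained libraries, with an adjusted p of 0.0304 by edgeR's quasi-likelihood test with Benjamini-Hochberg adjustment.

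Hdac7 was 1 of 39 members called, where 1.04% of all genes tested were called. At an unadjusted p under 0.05 stood 8 members, all lower, or 20.5% of the set beside 17.3% of all genes tested, with 1 under a replicate block without factors (2.56% beside 7.38%) and 18 without WT homecage replicate 3 of RNA-Seq 1 (46.2% beside 24.5%). DESeq2 called 1, Hdac7 (2.56% of the set), beside 3.71% of all genes. The log2 fold change stayed between -0.30 and -0.18 in all 13 fits without 1 library, but the call was lost in 6 of them, without WT homecage replicate 1 of RNA-Seq 1 (-0.18, adjusted p 0.229), replicate 2 of that group (adjusted p 0.143), WT MWM replicate 1 (0.123), 2 (0.077) or 3 (0.142), and WT homecage replicate 1 of RNA-Seq 2 (0.0579). It was also lost with TMM (-0.22, adjusted p 0.0607), GC-content normalization (-0.26, 0.244), no factors (-0.23, 0.729), 2 factors (-0.23, 0.0854), replicate block without factors (-0.24, 0.608), RNA-Seq 1 alone (-0.51, 0.379) and RNA-Seq 2 alone (0.00, 1), in a range over the alternatives from 0.00396 to 1, and kept with block and 3 factors (-0.26, 0.00778). The exons of Hdac7 share 29 of 6755 bases with Slc48a1 on the other strand, and the strand setting of the counting is not stated.

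Without WT homecage replicate 3 of RNA-Seq 1, the library that stands apart in its markers, 9 members (23.1%) were called in WT learning, beside 10.1% of all genes. Hdac7 (-0.27), Hdac10 (-0.21), Hdac6 (-0.16), Hdac5 (-0.16), Hdac11 (-0.15), Kat7 (-0.13), Brd3 (-0.16) and Sirt6 (-0.19) were then lower and Sirt1 (0.19) higher. Without WT homecage replicate 3 of RNA-Seq 2, Hdac7 (-0.30) and Hdac10 (-0.18) were called, beside 2.69% of all genes. Hdac5 is an example, at 480, 469 and 307 CPM in the homecage mice of RNA-Seq 1 beside 356, 361 and 347 CPM in MWM mice, with replicate 3 below all MWM libraries and its group mates above them.

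Other members stayed short of the test in the full fit. Hdac10 was at 29.8, 30 and 21.8 CPM in homecage and 22.5, 23.2 and 22.4 CPM in MWM mice, and at 21.9, 20.4 and 19.2 CPM in homecage and 19.4, 20.7, 18.9 and 19.6 CPM in CFC mice. The groups overlap in both experiments. Its log2 fold change was -0.15 (95% interval -0.24 to -0.06), lower in 6 of 7, with an adjusted p of 0.0849 by edgeR. The members with the lowest p above 0 were the class IIa deacetylase Hdac9 (0.07, -0.01 to 0.15, adjusted p 0.328, higher in 6 of 7) and the MYST scaffold Brpf1 (0.10, -0.01 to 0.20, adjusted p 0.342, higher in 6 of 7). Crebbp stood at -0.07 (SE 0.0487, -0.17 to 0.04, lower in 5 of 7, adjusted p 0.528) and Ep300 at 0.02 (SE 0.0392, -0.07 to 0.10, higher in 3 of 7, adjusted p 0.868).

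Over all 39 members the median of WT learning was -0.03 with 24 below 0, beside -0.03 and 57.7% below 0 over all genes tested, and with DESeq2 20 members were below 0. Of the intervals 38 of 39 lay within a 1.2-fold change, all but that of Hdac7, beside 45.7% of all genes tested. The difference between the experiments was tested as an interaction, RNA-Seq 2 minus RNA-Seq 1, and was 0.52 for Hdac7 (95% interval 0.19 to 0.84, adjusted p 0.534) and 0.34 for Sirt4 (0.10 to 0.58, adjusted p 0.538). edgeR called 0 of 39 members, beside 0.0136% of all genes tested, with these 2 (5.13%) at an unadjusted p under 0.05, beside 7.46% of all genes. DESeq2 called 0 members, beside 0.132% of all genes. Without WT homecage replicate 3 of RNA-Seq 1, Hdac7 (0.65, adjusted p 0.0186) and Hdac5 (0.45, adjusted p 0.0378) were called, 5.13% of the set beside 3.97% of all genes, and 10 stood at an unadjusted p under 0.05 (25.6% beside 20.9%). The interaction was 0.06 for Crebbp (-0.30 to 0.43) and 0.05 for Ep300 (-0.24 to 0.33).

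Markers of other cells moved with learning as well. Of 4 vascular markers, all below 0, the endothelial Cldn5 fell (log2 fold change -0.49, adjusted p 0.0296 by edgeR, lower in 7 of 7 libraries), and the list summed to 215, 240 and 197 CPM in homecage and 176, 169 and 147 CPM in MWM mice of RNA-Seq 1, led by Cldn5 in the first group and Flt1 in the second. In RNA-Seq 2 the sum was 135, 155 and 123 CPM in homecage and 124, 135, 131 and 140 CPM in CFC mice. The call of Cldn5 was lost without factors, with a replicate block and no factors, with GC-content normalization, in each experiment alone and without WT homecage replicate 1 or 2 of RNA-Seq 1 or WT MWM replicate 2 or 3 (adjusted p over the alternatives 1.20e-04 to 1). In this sum, as for Hdac7, the MWM libraries lie below the homecage libraries and the CFC libraries do not, whereas Cldn5 itself was below the homecage mean in both experiments. Of 5 choroid plexus markers Folr1 (2.83-fold, adjusted p 0.0449 by edgeR, 5 of 7) and Aqp1 (3.42-fold, adjusted p 0.0482, 5 of 7) rose. Both calls were lost in the same fits without factors, with 2 factors, with GC-content normalization and in each experiment alone. They were also lost in 9 and 8 of the 13 fits without 1 library, and that of Aqp1 with DESeq2. The sum of the 5 choroid plexus markers, led by Ttr except in the lowest libraries, where Kl led, was 140, 156 and 1784 CPM in homecage and 195, 611 and 1768 CPM in MWM mice, and 26.3, 1637 and 27.8 CPM in homecage and 34.1, 4097, 1683 and 1782 CPM in CFC mice. The 4 blood markers were all below 0 (median -0.24) without passing the test, with a mean sum of 305 CPM in homecage and 196 CPM in MWM mice, and of 28.5 CPM in homecage and 33.9 CPM in CFC mice. The part of vascular, blood or choroid plexus content in the values of the members was not tested.

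In CBP KIX/KIX mice the response to CFC was compared with the homecage group of the same genotype, all in RNA-Seq 2. Sirt1, the NAD-dependent deacetylase, was at 15.1, 14.4, 16.9 and 15.7 CPM in homecage and 17.1, 18.1, 18.2 and 19.8 CPM in CFC mice. The groups do not overlap. Its log2 fold change was 0.24 (95% interval 0.07 to 0.41, a difference of 18.1%), higher in 4 of 4 libraries, with an adjusted p of 0.491 by edgeR. In WT mice of RNA-Seq 2 Sirt1 was at 15.1, 15.7 and 16.3 CPM in homecage and 18.5, 16.9, 17.9 and 17.8 CPM in CFC mice, also without overlap, and the interaction of genotype and training was 0.07 (-0.13 to 0.27, adjusted p 0.971).

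Kat6b, a MYST enzyme, followed above 0 (log2 fold change 0.12, 95% interval -0.02 to 0.26, higher in 4 of 4), and Hat1 (-0.19, -0.41 to 0.02, lower in 3 of 4) and Hdac3 (-0.10, -0.20 to 0.01, lower in 4 of 4) below it, with adjusted p of 0.567, 0.555 and 0.558 by edgeR. Crebbp stood at 0.08 (SE 0.0642, -0.06 to 0.22, higher in 3 of 4, adjusted p 0.72) and Ep300 at 0.12 (SE 0.0703, -0.03 to 0.28, higher in 3 of 4, adjusted p 0.596). Hdac5 was at 0.06 (-0.18 to 0.30) and Hdac7 at 0.05 (-0.14 to 0.25). Of the bromodomain proteins 6 of 7 lay above 0 (median 0.09), all but Brd7, and so did the 3 p160 coactivators, with the same split under TMM, DESeq2 and GC-content normalization.

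edgeR called 0 of 39 members in this comparison, beside 0.0113% of all genes tested, and DESeq2 called 0, beside 0.26% of all genes. At an unadjusted p under 0.05 stood 1 member, Sirt1 (2.56% beside 9.43% of all genes). At that p stood 2 members with a replicate block (5.13% beside 11%), with 0 called. It was 5 with GC-content normalization (12.8% beside 9.72%) and 6 without CBP KIX/KIX homecage replicate 1 (15.4% beside 16.4%). The median was 0.06 with 30 of 39 above 0, beside 0.00 over all genes tested, and 0.03 with 25 above 0 without CBP KIX/KIX homecage replicate 4. In the same comparison Gfap was at -1.56, from 775 ± 489 CPM (SD, n = 4) in homecage to 261 ± 37.8 CPM (n = 4) in CFC mice, the median of 5 astrocyte markers at -0.22 and that of 5 choroid plexus markers at 0.58, none past the test, and their part was not tested. The homecage comparison of the genotypes uses the same CBP KIX/KIX homecage libraries, there as the mutant group and here as the reference, so its median of -0.05 and this one of 0.06 are not independent. Of the intervals 28 of 39 lay within a 1.2-fold change, beside 34.7% of all genes tested.

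**Figure D4:**
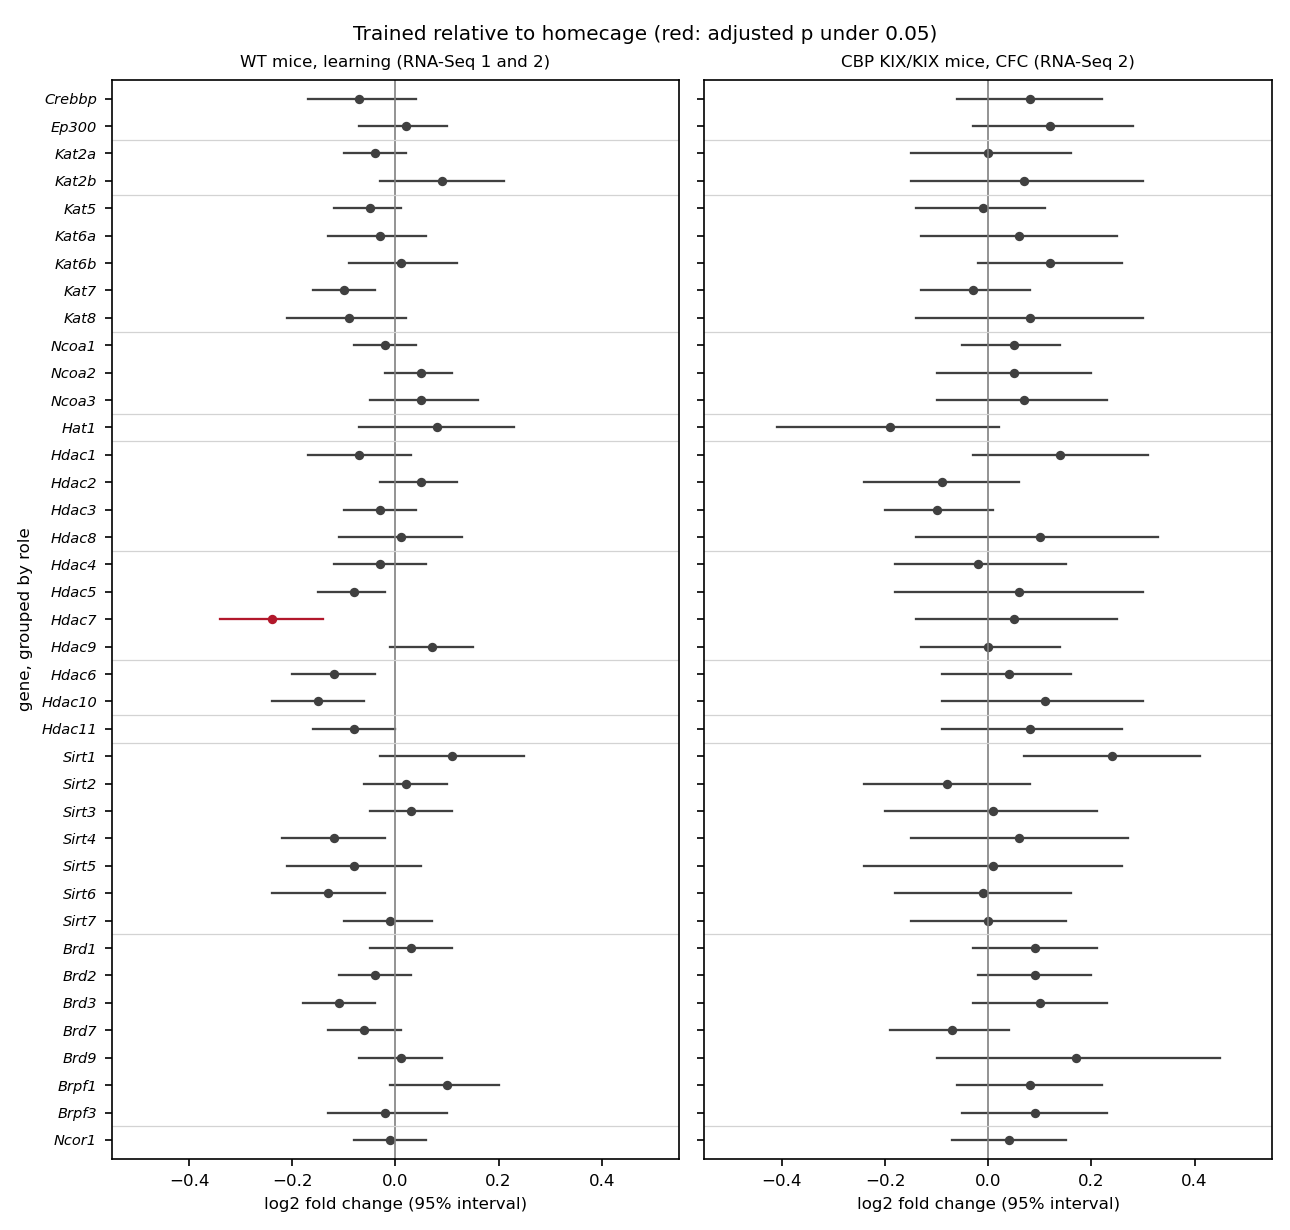
Log2 fold change (horizontal axis) with its 95% interval for each of the 39 genes (vertical axis, by role), trained over homecage mice, WT mice of both experiments at left and CBP KIX/KIX mice at right; red marks an adjusted p under 0.05. Hdac7 in WT mice, at -0.24, is the sole red interval, and Sirt1 in CBP KIX/KIX mice, at 0.24, lies farthest above 0.

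Of the partner genes of these enzymes in 4 further lists 4 were called, all in the genotype comparison after learning, where 2.84% of all genes tested were called. Of 37 subunits of acetyltransferase complexes 2 rose in CBP KIX/KIX mice, Morf4l1 (log2 fold change 0.14, adjusted p 0.0148, higher in 6 of 7), the MRG15 subunit of NuA4, from 74.7 ± 1.11 to 89.1 ± 4 CPM (SD, n = 3) in MWM and from 212 ± 4.69 to 219 ± 8.44 CPM (n = 4) in CFC mice, and Zzz3 of the ATAC complex (0.13, adjusted p 0.0331, 6 of 7). Of 27 subunits of deacetylase complexes 1 fell, Chd5, a neuronal NuRD remodeller (-0.17, adjusted p 0.00431, 6 of 7), from 570 ± 26.5 to 472 ± 67.3 CPM in MWM and from 268 ± 13.2 to 253 ± 25.4 CPM in CFC mice. Of 5 genes of acetyl-CoA and NAD supply 1 rose, Nampt, the limiting enzyme of NAD salvage (0.16, adjusted p 0.0233, 7 of 7). Each of these 4 calls was lost without factors, with a replicate block and no factors, with GC-content normalization and in each experiment alone, and Zzz3 kept its call in 2 of 10 such alternatives, Chd5, Morf4l1 and Nampt in 4. In the 14 fits without 1 library Chd5 was called in 14, Morf4l1 in 13 (not without CBP KIX/KIX MWM replicate 2), Nampt in 12 (not without CBP KIX/KIX MWM replicate 1 or 2) and Zzz3 in 7. The medians of these lists were -0.01, -0.01 and 0.00 in the order named, and 0.04 over 23 further acetyl-lysine readers, beside -0.01 over all genes tested.

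Since CREB recruits CBP through the KIX domain, the promoter of Hdac5, the member lower in CBP KIX/KIX mice, is shown with the core letters of the cAMP response element, a choice made after the values were seen. Promoter windows of 300 bases came from RefSeq on GRCm38.p6 and matched 33 of the 39 members. The motif TGACG, or CGTCA on the other strand, is in 20.8% of all 32851 promoters and in 13 of the 47 member promoters, and 5.01% of all promoters hold it at least 2 times. The window of Hdac5, at chr11:102230123-102230422 on the minus strand, holds it 2 times, in capitals.
Hdac5 promoter: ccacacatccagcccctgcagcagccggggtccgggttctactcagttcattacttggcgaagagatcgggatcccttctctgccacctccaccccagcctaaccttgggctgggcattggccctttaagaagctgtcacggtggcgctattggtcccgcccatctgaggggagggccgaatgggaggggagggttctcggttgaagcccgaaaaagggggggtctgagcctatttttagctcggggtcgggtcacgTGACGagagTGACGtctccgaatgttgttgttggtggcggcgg
At least 2 matches are in 3 of the 47 member promoters (6.38%), those of Hdac5, Hdac4 (3 matches) and Kat5 (2 in 1 of its windows), and Kat5 was at 0.00 after learning. The windows of Crebbp and Ep300 hold the motif 0 times, and so do the 4 windows of Hdac7. A match describes letters and shows no binding.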

How the data were processed

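The values deposited by the authors are raw counts from featureCounts 1.4.4 after STAR alignment to GRCm38 (SAMtools 1.6 in the same pipeline), 1 count per read or read pair assigned to a gene, for 24 libraries in 7 groups. Strand setting and annotation release are not stated. Genes passing filterByExpr were tested with edgeR 4.0.16 in R 4.3.3 (upper-quartile normalization, Benjamini-Hochberg adjustment of the quasi-likelihood p over each gene tested, called at an adjusted p under 0.05). The genotype comparison after learning used the experiment and 4 RUVr factors of unwanted variation, WT learning the experiment and 3, and the other 5 comparisons none. RUVr was implemented separately. The genotype fits after learning and in homecage mice were run on simulated counts with planted changes larger than those of the members. These counts held no unwanted variation, so they check neither the factors nor changes as small as those reported. Alternatives were TMM, DESeq2 1.42.0, no filter, normalization over 10 bins of GC content, other factors, replicate block, each experiment alone, and leaving out each library. Depth was 15.4 to 65.7 M (megacounts) per library, and floors cover counting error only.

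Intervals are 95% intervals from the standard error of each fit, not adjusted over members. p-values measure spread between the samples sequenced, and in fits with factors only the spread left after those factors. Crebbp, Ep300 and each called member are given in full, and in each comparison of 2 groups the 2 members with the lowest p in each direction. Other genes singled out in the text were chosen after their values were seen. The members and lists were chosen with earlier results of these data known. Whether equal replicate numbers are pairs was checked by correlation of residuals: all 6 same-number pairs of WT homecage with WT learning libraries lay above 0.1 (0.1004 to 0.3751), as did all 4 of CBP KIX/KIX homecage with CFC (0.1458 to 0.2482), while of the genotype pairs 3 of 4 in CFC mice, 2 of 3 in homecage mice and 0 of 3 in MWM mice did. Pairs with different numbers also lay above 0.1, 4 of 18 in RNA-Seq 1 and 14 of 63 in RNA-Seq 2. Among CBP KIX/KIX mice, CFC replicate 1 with homecage replicate 2 gave 0.2133 and CFC 2 with homecage 1 gave 0.1948. CFC 1 with homecage 3 gave -0.2228. Depth in RNA-Seq 2 was 30.1 to 46.1 M in replicates 1 and 2 and 15.4 to 20.6 M in 3 and 4. The part of depth in these correlations was not tested. Pairing was taken to need all same-number pairs of a comparison above 0.1. WT learning and CFC in CBP KIX/KIX mice met this rule, and the genotype comparisons did not. The fits reported first still have no block in any comparison, so those of WT learning and of CFC in CBP KIX/KIX mice leave this possible pairing out. Fits with a replicate block are given as alternatives.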

Additional observations from a re-analysis of the deposited data

Results flagged for a closer look

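In groups of 4 libraries, 47 quantities in 3 groups (141 in all) were looked at for a library far from the other 3, and 5 were found; chance alone marks about 1 in 20. In CBP KIX/KIX CFC mice, Hdac2 was 75.8 CPM in replicate 1 beside 83.2 to 84.2 CPM in the others. In CBP KIX/KIX homecage mice, Hdac7 was 56.4 CPM in replicate 1 beside 45.5 to 47 CPM, the Crebbp share of Crebbp plus Ep300 per kilobase was 46.9% in replicate 4 beside 52.5 to 53.6%, and the summed blood markers were 41.6 CPM in replicate 3 beside 24.5 to 27.3 CPM. In WT CFC mice, Sirt6 was 15.5 CPM in replicate 3 beside 18.4 to 18.9 CPM. The cause was not tested. Of the 39 members 0 had an interaction past the threshold by edgeR in the full fits, with 0, 5 and 2 members at an unadjusted p under 0.05 in the 3 interactions. DESeq2 called 0 members in each, beside 0.0053, 0 and 0.132% of all genes.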

How the results depend on the processing

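A sign change counts as reversed where the value or the alternative was called or the main value exceeded its standard error. Of 757 log2 fold changes of named members under the alternatives, 725 kept their side of the threshold without a reversal by this rule. A further 16 lost the call, 12 gained one and 4 reversed. All 4 reversals were in RNA-Seq 2 alone: Ep300 (0.02) and Hdac7 (0.00) in the genotype comparison after learning, and Hdac5 (0.03) and Hdac7 (0.00) in WT learning. Sign changes of uncalled values within their standard error stay among the 725. Crebbp after learning is an example, at -0.02 in the first fit and 0.05 in RNA-Seq 2 alone.

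Members called after learning, 1 in the first fit, were 0 without factors, 0 with replicate block and no factors, 6 with replicate block and 4 factors, and 0 in either experiment alone. In WT learning, 1 in the first fit, they were 0 with TMM, GC-content normalization, no factors, 2 factors, replicate block without factors, and either experiment alone. Leaving out 1 library gave 1 to 2 members after learning, 0 to 9 in WT learning, 0 to 2 in the interaction of WT learning with experiment and 0 to 0 in the others. Of all genes, 1.05 to 4.74% were called in these fits after learning, 0.15 to 10.1% in WT learning and 0 to 3.97% in that interaction.

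Genes called over the whole table were, after learning, 610 (356 lower, 254 higher) and 936 with DESeq2 (593 lower), 320 without filter, 44 with GC-content normalization, 4 without factors, 172 with 2 factors, 8 and 2790 with replicate block without and with factors, and 3 and 1 in RNA-Seq 1 and 2 alone. In homecage mice they were 2, and 57 with DESeq2, 10 without filter and 0 with replicate block. In WT learning they were 229 (140 lower, 89 higher), and 139 with TMM (51 lower, 88 higher), 818 with DESeq2 (245 lower, 573 higher), 141 without filter, 23 with GC-content normalization, 9 without factors, 103 with 2 factors, 12 and 929 with replicate block without and with factors, and 3 and 21 in each experiment alone. For CFC in CBP KIX/KIX mice they were 2, and 46 with DESeq2 and 1 with GC-content normalization. For genotype by training they were 0, and 1 with DESeq2. For WT learning by experiment they were 3, and 1 with TMM, 29 with DESeq2, 7 without filter and 6 with replicate block. Leaving out 1 library gave 234 to 1023 genes after learning, 0 to 7 in homecage mice, 34 to 2277 in WT learning, 0 to 155 for CFC in CBP KIX/KIX mice, 0 to 63 for genotype by training, 0 to 0 for genotype by experiment and 0 to 892 for WT learning by experiment. The extremes were fits without CBP KIX/KIX MWM replicate 2 (234) and CBP KIX/KIX CFC replicate 1 (1023), without WT homecage replicates 1 (34) and 3 (2277, 892) of RNA-Seq 1, and without CBP KIX/KIX homecage replicate 1 (7, 155, 63). The cause was not tested.

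Limits: gene counts show neither protein, activity nor acetylation, and cannot show the KIX mutations or isoforms. No CBP KIX/KIX homecage mice were sequenced in RNA-Seq 1. Each group holds 3 or 4 mice. Homecage intervals have a median width of 0.345 on the log2 scale. After learning it is 0.149, in a fit that pools both experiments and includes 4 factors.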
